A study of Homo sapiens with 2 samples.

Results

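RNA-seq data were used to describe 8 named long noncoding RNA genes: MALAT1, NEAT1, PVT1, MIR205HG, MIR31HG, UCA1, TUG1 and DANCR. The members were taken by gene symbol from the deposited gene table, and they are 8 of the 27685 genes listed, with 19 of the 63714 listed transcripts. The values come from 1 library of untreated H2087 cells and 1 library of untreated H596 cells, both established cell lines grown in serum-supplemented RPMI medium and both labelled lung adenocarcinoma. The total estimated count was 46961500 in H2087 and 55387847 in H596. Each cell line had a single library, so no difference between the cell lines has a replicate check. No test between the lines was made, and intervals are 95% intervals that cover counting error only. The unit is FPKM, fragments scaled by transcript length and library size, which sets genes of different length on the same scale. Fewer cells with a transcript and less of it per cell cannot be told apart in bulk RNA.

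Long noncoding RNAs are transcribed, often spliced and capped like messenger RNAs, but are not known mainly for encoding a protein. Some stay in the nucleus and organise bodies there: NEAT1 is the scaffold of paraspeckles, and MALAT1 collects in nuclear speckles, where splicing factors are stored. Others are precursors of small RNAs, as MIR205HG and MIR31HG are for the microRNAs miR-205 and miR-31, and several, such as PVT1 and UCA1, are known for high levels in carcinomas. The libraries were made with a stranded mRNA kit, which selects polyadenylated RNA, so the levels are those of RNA with a poly(A) tail or an A-rich stretch.

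The sequences behind these points are shown first. The host genes are shown by the mature microRNAs of their hairpins, from RefSeq on GRCh38.p14, with the seed (bases 2 to 8) in capitals. Each of the 3 had a different seed. The small RNAs themselves are not captured by an mRNA library, so only the host transcripts and the hairpin rows were measured.
hsa-miR-205-5p: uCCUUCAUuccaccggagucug
hsa-miR-205-3p: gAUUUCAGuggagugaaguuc
hsa-miR-31-5p: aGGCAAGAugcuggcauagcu

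The ends of NEAT1 and MALAT1 are shown because they decide what an mRNA library can capture. NEAT1 has a short form, which is polyadenylated, and a long form that runs on past this site. The long form of NEAT1 and MALAT1 end, as is known of them, where RNase P cuts before a small tRNA-like RNA, and not at a poly(A) site. The last 60 bases of the short and the long form, on the plus strand of chromosome 11 in GRCh37 (the same assembly as hg19), are at chr11:65193944-65194003 and chr11:65212950-65213009. For MALAT1, the 60 bases before the listed start of its tRNA-like RNA (MASCRNA) are at chr11:65273528-65273587. Capitals mark the hexamer AATAAA, the usual poly(A) signal, in the short NEAT1 end, and runs of at least 4 A in the others.
NEAT1 short form: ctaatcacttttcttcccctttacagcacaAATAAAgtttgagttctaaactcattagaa
NEAT1 long form: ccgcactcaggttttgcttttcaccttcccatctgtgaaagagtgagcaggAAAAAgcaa
MALAT1 before MASCRNA: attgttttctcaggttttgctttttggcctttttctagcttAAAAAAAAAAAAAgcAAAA
MASCRNA itself covers 58 bases at chr11:65273588-65273645.
MASCRNA: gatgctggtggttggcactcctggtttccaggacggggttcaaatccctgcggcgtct

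The short NEAT1 form held AATAAA from 30 bases before its end, and the last 50 bases of the long form held neither AATAAA nor ATTAAA. The end of the long form and MALAT1 before MASCRNA shared a run of 16 bases, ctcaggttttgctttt. This run ended 39 bases before the end in NEAT1 and 36 bases before it in MALAT1. The longest run of A was 5 in the NEAT1 long form and 13 in MALAT1. The MALAT1 transcripts listed by the authors did not stop before MASCRNA: they ran 395 bases past its first base, to an end with AATAAA in its last 50 bases.

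The members were not equally abundant. In H2087 their FPKM ran from 0.316 to 168, a 532-fold span, and in H596 from 4.83 to 192, a 39.7-fold span. Their median FPKM was 21.2 in H2087 and 32.0 in H596, against 9.23 and 10.5 for the 13047 genes whose mean FPKM reached 1. All 8 passed this filter on low values, MIR31HG by its level in H596 alone. The members together held 0.132% of the estimated counts in H2087 and 0.135% in H596.

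An FPKM of at least 100, the level the study used for a highly expressed gene, was reached in H2087 by 2 members, UCA1 and NEAT1. In H596 it was reached by 3, MIR205HG, NEAT1 and UCA1. Over all genes the share at this level was 2.54% in H2087 and 2.30% in H596. Among the 8317 genes listed with noncoding accessions only, 16 in H2087 and 17 in H596 were at this level. These members were thus among the highest noncoding genes: UCA1 ranked 12 in H2087 and 17 in H596, and NEAT1 ranked 13 and 15. MIR205HG ranked 713 in H2087 and 11 in H596. The word abundant does not cover all members, since MALAT1 ranked 142 and 257 and MIR31HG 1689 and 356.

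**Figure D1:**
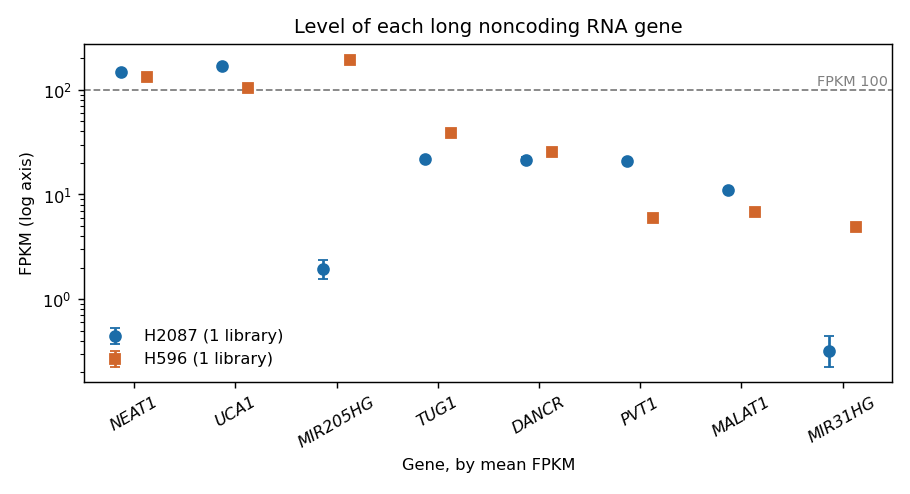
FPKM (log axis) of the 8 genes, ordered by their mean, in the H2087 library (circles) and the H596 library (squares). Bars are 95% counting intervals, many smaller than the symbols, and the dashed line is an FPKM of 100. The pairs of symbols lie close together except for MIR205HG (1.92 and 192), MIR31HG (0.316 and 4.83) and PVT1 (21.0 and 5.92).

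In H2087 the order from high to low was UCA1, NEAT1, TUG1, DANCR, PVT1, MALAT1, MIR205HG and MIR31HG. TUG1, DANCR and PVT1, with FPKM values of 22.0, 21.4 and 21.0, could not be told apart, since the counting intervals of neighbours overlapped. In H596 the order was MIR205HG, NEAT1, UCA1, TUG1, DANCR, MALAT1, PVT1 and MIR31HG, and no neighbours had overlapping intervals. The closest pair there, MALAT1 and PVT1, differed 1.15-fold.

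Between the cell lines, 2 of the 8 members, MIR205HG and MIR31HG, were at least 2-fold higher in H596 on the scale of log2(FPKM + 1), and 1, PVT1, was at least 2-fold lower. Over all 13047 genes that passed the filter, 32.4% were called at this fold, with 18.2% of all genes compared at a higher level in H596 and 14.2% at a lower one. Among the 1144 noncoding genes that passed the filter, 35.3% were called, with 20.6% at a higher and 14.7% at a lower level. The share of members called, 3 of 8, was therefore near the background. A gene below 1 FPKM in 1 library can pass the filter by the other library alone. The filter then favours its call, among members, lists and background alike. Only the difference of MIR205HG was extreme: 99.8% of all genes tested had a smaller one. For MIR31HG this share was 91.3% and for PVT1 85.4%. The median difference was 0.03 over the 8 members, 0.12 over all genes tested and 0.17 over noncoding genes, H596 minus H2087. Rescaling to TPM shifts all genes by 0.18 on the log2 scale before the pseudocount, because the FPKM values of the libraries have unequal sums, and the TMM factors of edgeR shift depth-scaled counts by -0.13. All 8 members kept their sign under these scalings, although the log2 difference of NEAT1, -0.19 as deposited, was -0.0034 in TPM and -0.35 with TMM.

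**Figure D2:**
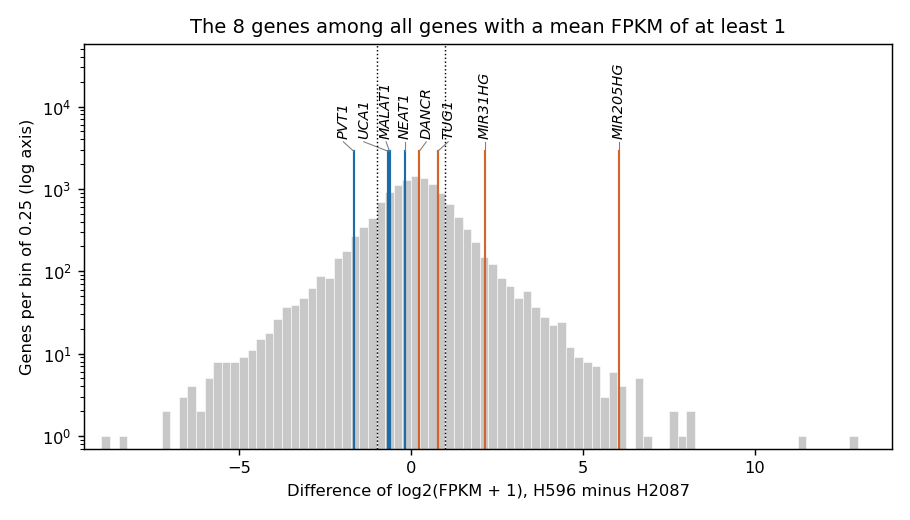
Histogram of log2(FPKM + 1) in H596 minus that in H2087, over the 13047 genes whose mean FPKM reached 1 (log count axis, bins of 0.25), with the 8 members as lines (orange, higher in H596, and blue, lower) and 2-fold as dotted lines. Of the members, 5 lie within the dotted lines, and MIR205HG lies at 6.05 in the thin right tail.

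NEAT1 (gene 283131) covers 65190269 to 65213009 on chromosome 11 and is annotated as a long noncoding RNA. The level was 150 FPKM (95% interval, 148 to 151) from 27822 counts in H2087 and 132 (130 to 133) from 28221 counts in H596. In FPKM it was 1.14-fold (1.12 to 1.16) higher in H2087, a difference above counting error on that scale, although only 15.6% of the genes tested differed less. The TPM values were 320 in H2087 and 319 in H596, so this difference depended on the scaling. Nearly all of this was assigned to the short form of 3735 bases, with FPKM values of 149 in H2087 and 131 in H596. The long form of 22741 bases, on which paraspeckles are built, had an FPKM of 1.12 (1.06 to 1.19) in H2087 and 0.322 (0.293 to 0.355) in H596.

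The long form thus was 3.49-fold (95% interval, 3.12 to 3.91) higher in H2087, while the short form was 1.13-fold (1.11 to 1.15) higher there. The long form took 4.40% (4.16 to 4.65) of the NEAT1 counts in H2087 and 1.47% (1.34 to 1.62) in H596. The values of both forms therefore moved by unequal amounts. The forms share their first 3735 bases, so the division rests on the 19006 bases that only the long form has. Counts assigned to the long form were few: 53.8 per kb of its whole length in H2087 and 18.3 in H596. The short form had 7121 and 7444 per kb. Counts over the 19006 bases alone were not available. As the long form lacks a poly(A) tail, its level here is that of the molecules captured, and the part of capture in the difference was not tested. MIR612, a microRNA hairpin row within the part that only the long form has, had 1 count in each library.

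MALAT1 (gene 378938) lies 52.2 kb further along, at 65265209 to 65273983. The level was 11.1 FPKM (95% interval, 10.8 to 11.4) from 4432 counts in H2087 and 6.84 (6.61 to 7.08) from 3243 counts in H596. It was 1.62-fold (1.55 to 1.70) higher in H2087, and NEAT1 exceeded it 13.5-fold in H2087 and 19.2-fold in H596. MALAT1 is known as one of the most abundant nuclear RNAs of many cells, and at these levels it stood near the middle of the genes tested, above 55.2% of them in H2087 and 36.7% in H596. How much of it the poly(A) selection missed was not tested. Of its 3 listed transcripts, NR_144568, of 8298 bases, held 90.5% of the FPKM in H2087 and 88.4% in H596. NR_002819, the unspliced 8775 bases, held 9.49% and 11.6%, and NR_144567 had 0 counts. TALAM1, the antisense transcript over MALAT1, had 9 counts in H2087 and 0 in H596, and MASCRNA had 1 count in each.

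Most genes for proteins that work with these nuclear RNAs were within 2-fold. All 20 listed paraspeckle protein genes passed the filter, and 17 were within 2-fold, with 2 higher and 1 lower in H596 and a median log2 difference of -0.13. The gene lower in H596 was NUDT21, with FPKM values of 43.9 in H2087 and 19.3 in H596. The higher ones were ZNF24, with 6.90 and 26.3, and RBM4B, with 9.73 and 20.9. NONO, a core paraspeckle protein, had FPKM values of 128 in H2087 and 165 in H596. SFPQ, its partner, had 115 and 111. HNRNPK, which acts on the choice between the NEAT1 forms, had 279 and 298, and EWSR1, an RNA-binding protein, had 97.5 and 106. Of 21 proteins of nuclear speckles and of small RNA processing, 18 were within 2-fold, 2 were higher and 1 was lower in H596, with a median log2 difference of 0.16. Among them the splicing factors SRSF2 (108 and 92.2), SRSF3 (75.8 and 99.0) and SRSF5 (77.9 and 125) stayed within 2-fold, and U2AF1, which reads the 3′ splice site, had 131 in H2087 and 55.5 in H596. Both lists thus held fewer 2-fold calls than the background of 32.4%.

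MIR205HG (gene 642587), the host gene of miR-205, covers 209602165 to 209605892 on chromosome 1. The level was 1.92 FPKM (95% interval, 1.56 to 2.37) from 87 counts in H2087 and 192 (188 to 196) from 10302 counts in H596. The level in H596 was 100.1-fold (81.1 to 125) higher, the largest difference of the 8 members. Its log2 difference of 6.05 became 6.57 with a pseudocount of 0.1. miR-205 is known as a microRNA of stratified and basal epithelium.

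All 5 listed MIR205HG transcripts were higher in H596. NR_145434 led, with FPKM values of 0.905 in H2087 and 124 in H596, a 137-fold (95% interval, 101 to 189) difference. NR_145435 had 0.415 and 29.8, and NR_145433 had 0.599 and 18.1. NR_145437 had 0 counts in H2087 and 981 in H596. The share of NR_145434 in the gene's counts was 49.4% (39.2 to 59.7) of only 87 counts in H2087, and 66.5% in H596. The MIR205 hairpin row, at 209605478 to 209605587 within the host, had 3 counts in H2087 and 120 in H596. Of 17 host transcripts in the reference annotation, 12 had an exon that overlapped part of the hairpin and 0 had an exon holding all of it, so reads of the host can fall in the hairpin row.

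Several markers of squamous epithelium, but not all, were high in the same library. Of 10 squamous and basal markers, 6 passed the filter and 5 of these were at least 2-fold higher in H596, against 18.2% of all genes tested. TP63, KRT5 and DSG3 passed it by their level in H596 alone, which favoured their call, so this count is no test. The FPKM values of the whole list summed to 51.9 in H2087 and 360.3 in H596. TP63, the transcription factor of basal epithelium, had 0.183 and 55.2, and KRT5, a basal keratin, had 0 counts in H2087 against 106 FPKM in H596. DSG3 had 0 counts in H2087 and 33.9 FPKM in H596, and KRT6A had 1.48 and 53.7. SOX2 was present in both lines, with 39.1 and 56.5, and CALML3 had 0 counts in both. Other markers were low in H596 as well: KRT14 had 1.33 FPKM there, PKP1 0.353 and DSC3 7 counts. Of 10 lung adenocarcinoma markers, 8 passed the filter and 6 of these were at least 2-fold lower in H596, against 14.2% of all genes tested. Here NKX2-1, NAPSA, SFTPA1 and SFTA3 passed it by their level in H2087 alone, which favoured their call, so this count is no test either. The list summed to 1010.02 in H596 and 5174 in H2087. NKX2-1, the lung lineage factor, had 110 in H2087 and 0.508 in H596, and NAPSA had 21.9 and 0.0645. KRT18, a simple epithelial keratin that made up most of the sum in H2087, had 3607 and 234, and EPCAM, an epithelial adhesion molecule, had 375 and 65.0. KRT7, another simple epithelial keratin, was high in both, with 791 and 608, as was MUC1, an epithelial mucin, with 86.0 and 102. The surfactant gene SFTPA1 had 82.9 in H2087 and 0 counts in H596, and SFTA3 had 101 and 0.0304. H2087 thus held most markers of its label, except the surfactant genes SFTPB (0.123) and SFTPC (0 counts). In H596 the lung lineage markers NKX2-1 and NAPSA were near 0, against its label, while the general epithelial markers KRT7, KRT18, EPCAM and MUC1 remained at 65.0 or more. Markers of other cell types were low. For 6 fibroblast markers the summed FPKM was 3.90 in H2087, mostly COL1A1 (3.89), and 10.7 in H596, mostly DCN (9.77, with 0 counts in H2087). The sums in H2087 and H596 were 2.12 and 0.157 for 5 leukocyte markers and 2.57 and 1.02 for 4 endothelial markers. For 5 neuroendocrine markers they were 0.120 and 0.823. The part of the epithelial markers' difference in the levels of MIR205HG and MIR31HG was not tested.

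MIR31HG (gene 554202), the host gene of miR-31, spans 105 kb of chromosome 9, from 21454267 to 21559697, and is read from the minus strand. The level was 0.316 FPKM (95% interval, 0.225 to 0.444) from 33 counts in H2087 and 4.83 (4.46 to 5.24) from 590 counts in H596. It was 15.3-fold (10.8 to 22.4) higher in H596, although its level there was the lowest of the 8 members. On the log2(FPKM + 1) scale the difference was 2.15, and with a pseudocount of 0.1 it was 3.57, since the added 1 damps low values. The MIR31 hairpin, at 21512114 to 21512184, lies in an intron of all 21 annotated host transcripts that span it, and it had 0 counts in both libraries, which allows up to 3 counts in each. IFNE, an interferon gene inside the host on the same strand, stood at 0.283 FPKM in H2087 against 1.88 in H596.

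The start sites of both host genes are shown for their unlike base composition. The windows lie mostly before and partly after the gene starts as RefSeq annotates them on GRCh38.p14, with every CG dinucleotide in capitals. These starts need not be those of the deposited table. The MIR31 hairpin starts at 21512114 in hg19 and 21512115 in GRCh38, so positions hardly differ there. By this, the MIR31HG window lies wholly before the start listed in the deposited table, 21559697. MIR205HG is at chr1:209428570-209428869 on the plus strand, and MIR31HG at chr9:21559749-21560048 on the minus strand.
MIR205HG promoter: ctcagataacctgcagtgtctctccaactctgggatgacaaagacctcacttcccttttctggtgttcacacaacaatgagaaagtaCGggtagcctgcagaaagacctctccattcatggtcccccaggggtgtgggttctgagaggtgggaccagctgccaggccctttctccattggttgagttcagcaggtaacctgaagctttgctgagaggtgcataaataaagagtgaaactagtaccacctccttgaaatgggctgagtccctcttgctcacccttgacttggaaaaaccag
MIR31HG promoter: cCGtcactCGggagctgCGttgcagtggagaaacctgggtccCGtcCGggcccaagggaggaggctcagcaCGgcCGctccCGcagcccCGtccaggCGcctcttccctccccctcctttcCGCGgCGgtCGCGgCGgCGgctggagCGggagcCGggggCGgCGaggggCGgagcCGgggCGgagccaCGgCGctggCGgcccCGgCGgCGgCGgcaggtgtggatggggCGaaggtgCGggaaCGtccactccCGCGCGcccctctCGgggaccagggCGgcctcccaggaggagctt

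The MIR205HG window held 1 CG and 50.3% GC, and only 3.96% of the 35116 promoters in the table held fewer CG. The MIR31HG window held 39 CG and 77.7% GC, more CG than 91.3% of promoters, whose median was 14. So the windows shown for both members that were at least 2-fold higher in H596 lay near opposite ends of the range of CG content. The TUG1 window held 28 CG and that of DANCR 27. For MALAT1 2 starts were listed, with 37 and 14. NEAT1, UCA1 and PVT1 had no entry.

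Other microRNA host genes did not share a direction. Of 21 listed ones, 7 passed the filter, of which 1 was at least 2-fold higher and 2 lower in H596. Over all genes tested these shares were 18.2% and 14.2%. MIR100HG, the host of miR-100, went the other way from MIR205HG, with FPKM values of 59.8 in H2087 and 0.0459 in H596. It passed the filter by its level in H2087 alone. MIR22HG had 1.39 and 10.4. MIR4435-2HG, with 27.3 and 25.5, and MIR210HG, a hypoxia-linked host gene, with 1.50 and 3.27, were within 2-fold on the log2(FPKM + 1) scale.

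UCA1 (gene 652995), a spliced RNA first described in bladder carcinoma, covers 15939757 to 15947131 on chromosome 19. The level was 168 FPKM (95% interval, 166 to 171) from 18669 counts in H2087 and 105 (104 to 107) from 13823 counts in H596. It was 1.60-fold (1.56 to 1.63) higher in H2087, where it was the highest member. With 1 listed transcript of 2314 bases, no division between forms was made.

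TUG1 (gene 55000), a widely expressed RNA first found as induced by taurine in retina, covers 31365197 to 31375380 on chromosome 22. It is listed as noncoding by the authors' annotation and as protein coding in GENCODE. The level was 22.0 FPKM (95% interval, 21.5 to 22.5) from 7941 counts in H2087 and 38.5 (37.9 to 39.1) from 16468 counts in H596. It was 1.75-fold (1.71 to 1.80) higher in H596, which is below 2-fold, and its log2 difference lay between 0.57 and 0.98 over the alternatives. The 3 transcripts, of 7527 to 7597 bases, differed between the lines by unequal amounts. NR_002323 was 2.55-fold (2.43 to 2.68) higher in H596, NR_110493 was 1.52-fold (1.46 to 1.57) higher, and NR_110492 was 1.16-fold (1.07 to 1.26) higher. The share of NR_002323 in the gene's FPKM was 27.2% in H2087 and 39.5% in H596, so the gene's difference was largest in this form. Forms so alike in length and sequence are divided by estimate, whose error is not known.

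DANCR (gene 57291), known for holding back the differentiation of epidermal progenitors, covers 53578561 to 53586864 on chromosome 4. The level was 21.4 FPKM (95% interval, 20.1 to 22.8) from 950 counts in H2087 and 25.5 (24.2 to 26.9) from 1332 counts in H596, a 1.19-fold (1.10 to 1.299) difference. It was one of the steadiest members, next to NEAT1. NR_024031, of 915 bases, held 95.6% of its FPKM in H2087 and 98.7% in H596. The longer NR_145129 had 42 counts in H2087 and 23 in H596, and NR_145130 had 11 and 1. SNORA26, a small nucleolar RNA row within DANCR, had 13 and 6 counts, and the MIR4449 hairpin row had 0 in both.

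**Figure D3:**
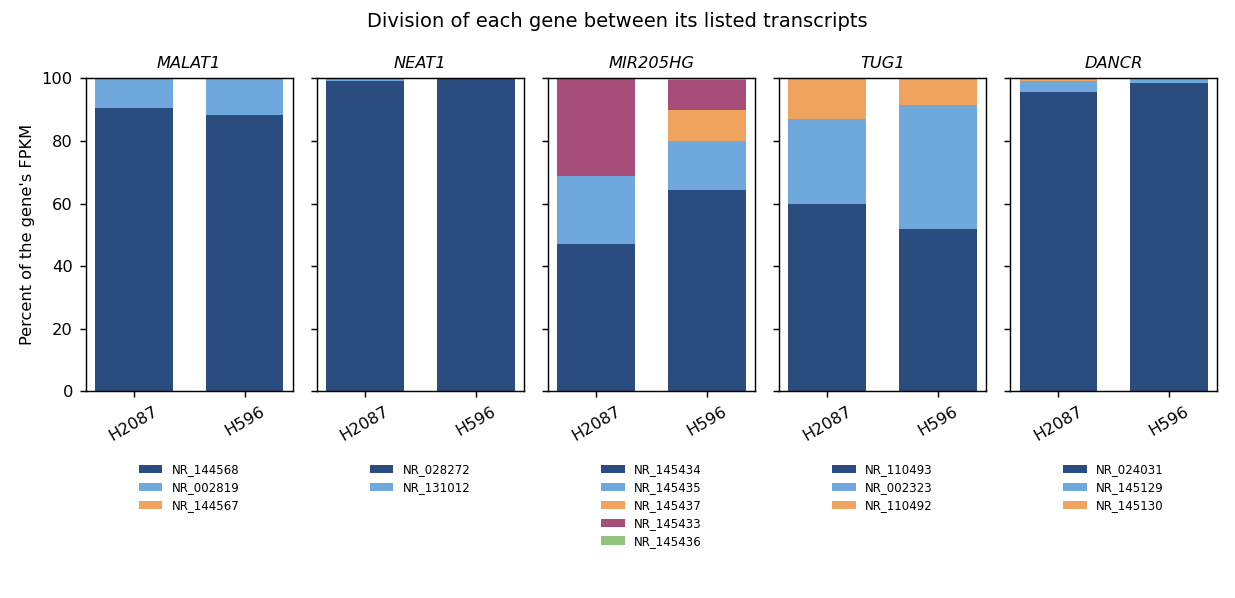
Percent of each gene's FPKM assigned to its listed transcripts (colours) in the H2087 and H596 libraries, for the 5 genes with more than 1 transcript. A single transcript holds over 88% in MALAT1, NEAT1 and DANCR, while NR_145434 takes 47.2% and 64.4% of MIR205HG and NR_110493 takes 59.96% and 51.9% of TUG1.

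PVT1 (gene 5820) lies 53.1 kb after MYC, the growth-promoting transcription factor, on chromosome 8, where it covers 128806779 to 129113499. The level was 21.0 FPKM (95% interval, 20.1 to 21.9) from 1953 counts in H2087 and 5.92 (5.49 to 6.40) from 653 counts in H596. It was 3.54-fold (3.24 to 3.88) higher in H2087. MYC stood in the same order, with 225 in H2087 and 39.5 in H596. The ratio of PVT1 to MYC, 0.0933 in H2087 and 0.150 in H596, moved 1.61-fold, less than either gene did. The hairpin rows within PVT1 were almost empty: MIR1204 had 12 and 9 counts, MIR1206 had 3 and 1, and MIR1205 and MIR1207 had 0. Of 10 neighbouring genes in a hand-made list, 5 passed the filter, and only MYC of them was at least 2-fold lower in H596. CASC8, a noncoding gene, was lower by less than 2-fold on the log2(FPKM + 1) scale, with 1.78 and 0.681, and POU5F1B, which did not pass the filter, had 0.683 and 0.270. GSDMC, a gasdermin, was at least 2-fold higher, with 1.91 and 5.54, and ASAP1 (7.58 and 11.4) and FAM49B (19.3 and 26.2) were within 2-fold. By position, 2 of the 10 nearest listed genes, 5 on each side, passed the filter, MYC and CASC8, both with lower values in H596 and a median log2 difference of -1.60, against -1.67 for PVT1. The hand-made list thus held genes with lower and genes with higher values in H596.

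The genes around the other members were taken mainly from hand-made lists too. Beside the counts of these lists and that of PVT1, 18.2% of all genes tested were at least 2-fold higher in H596 and 14.2% lower. Around MIR205HG, LAMB3, a laminin subunit of the epithelial basement membrane 182 kb away, had 16.9 in H2087 and 152 in H596. PLXNA2, a semaphorin receptor, had 0.419 and 16.4. G0S2, a lipolysis inhibitor, had 16.5 in H2087 and 0 counts in H596, and CD46, a complement regulator, had 141 and 131. So of the 6 listed neighbours that passed the filter, 3 were at least 2-fold higher, 1 was lower and 2 were within 2-fold. PLXNA2 passed it by its level in H596 alone and G0S2 by that in H2087 alone, which favoured their calls. MIR205HG relative to LAMB3 was 0.113 in H2087 and 1.27 in H596, so the host gene differed more than its neighbour.

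Around MIR31HG, 4 of 7 listed neighbours that passed the filter were at least 2-fold higher in H596 and 0 were lower. Among the higher ones was IFNE, which lies inside MIR31HG. IFNE and the noncoding gene CDKN2B-AS1 (0.357 and 1.81) passed the filter by their level in H596 alone, which favoured their call. By position, 4 of the 10 nearest genes outside MIR31HG passed the filter. Of these, 2 were at least 2-fold higher and 0 lower, with a median log2 difference of 0.42. CDKN2B, a cell cycle inhibitor, had 1.61 in H2087 and 12.1 in H596. CDKN2A (119 and 103) and MTAP, a methionine salvage enzyme (12.0 and 10.2), which lie between CDKN2B and MIR31HG, were within 2-fold. The higher values in H596 thus were not shared by all genes of this stretch.

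The neighbours of the remaining members went both ways. Around NEAT1 and MALAT1, 7 of the 8 listed neighbours that passed the filter were within 2-fold, and LTBP3, a binding protein of latent TGF-beta, was lower in H596, with 55.4 and 26.8. By position alone CDC42EP2, an effector of CDC42 before NEAT1, was also lower, with 15.4 and 1.69. MORC2, which starts 0.923 kb from TUG1 on the other strand, had 12.4 and 10.8, while TUG1 was higher in H596. LIMK2, an actin-regulating kinase, had 5.47 and 24.7. Around UCA1, 3 of 6 listed neighbours that passed the filter were at least 2-fold higher and 1 was lower in H596. Among the higher ones were the fatty acid hydroxylases CYP4F11, with 1.92 and 5.31, and CYP4F12, with 2 counts in H2087 and 1043 in H596. CYP4F12 passed the filter by its level in H596 alone, as did CYP4F3, with 0.295 and 3.09. Around DANCR, FIP1L1, a polyadenylation factor, had 16.1 and 21.9, and ERVMER34-1, a gene of retroviral origin, had 4.68 and 1.04.

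**Figure D4:**
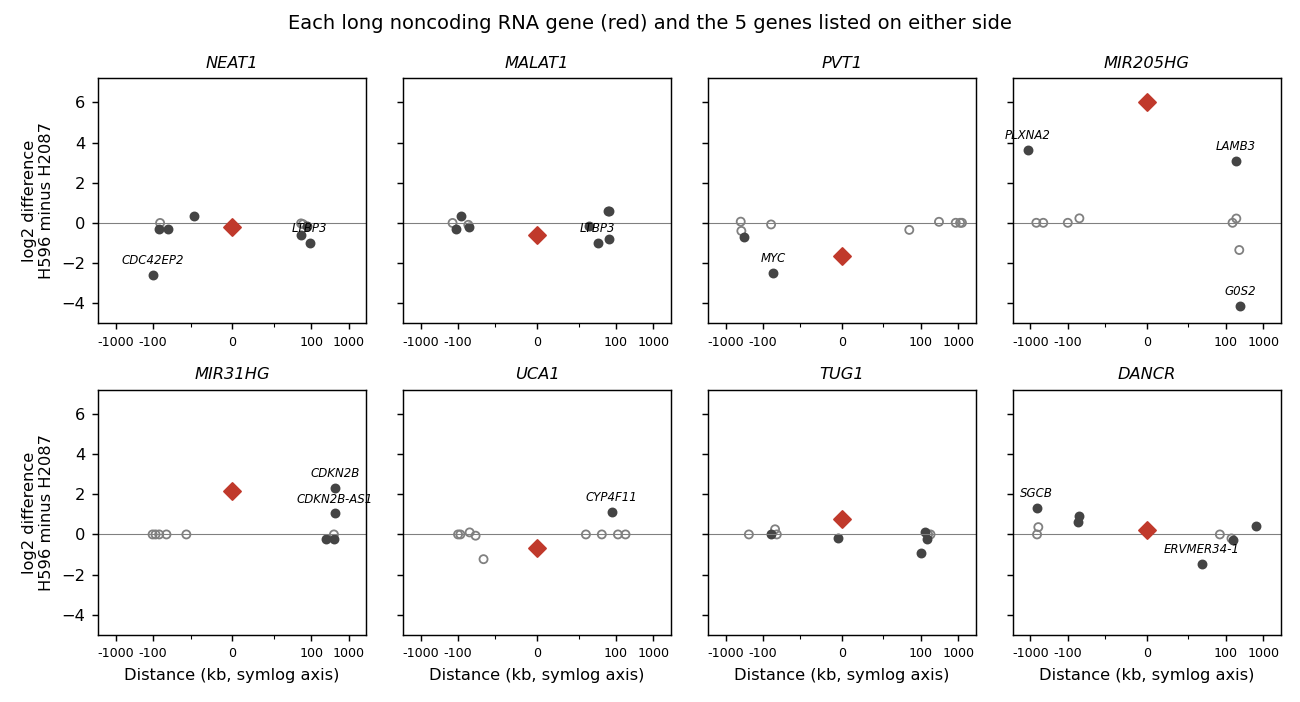
Log2 difference of FPKM + 1, H596 minus H2087, of each member (red diamond, distance 0) and of the 5 genes listed on either side, by distance in kb (symmetric log axis). Filled points passed the filter on low values, open points did not, and filled neighbours at least 2-fold apart are named. MYC lies on the same side of 0 as PVT1, and PLXNA2 and LAMB3 on the same side as MIR205HG, with G0S2 opposite.

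The ends of the members were read for poly(A) signals, over the last 50 bases in GRCh37 on the strand with the sequence of the RNA. AATAAA was found at the end of MALAT1 as listed, MIR31HG, TUG1, the short NEAT1 form and the short DANCR form, and PVT1 held ATTAAA. The ends of MIR205HG and UCA1, among the highest members, and the longer DANCR and NEAT1 forms held neither hexamer. One or the other was present in 75.9% of 20002 coding ends and 49.4% of 6736 noncoding ends, and in 61.1% of the 980 noncoding ends whose transcript reached a mean FPKM of 1. High levels thus were found with and without these letters in the window.

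For comparison, 47 other named long noncoding RNAs were found in the table. Of the 27 that passed the filter, 10 were at least 2-fold higher in H596, 10 were lower and 7 were within 2-fold. Over all noncoding genes that passed it, 20.6% were higher and 14.7% lower. Several called genes, among them H19, AFAP1-AS1 and LUCAT1, passed it by their level in a single library, which favoured their call. H19, an imprinted RNA, had 0 counts in H2087 and reached 7304 FPKM in H596. GAS5, a host of small nucleolar RNAs, had 547 in H2087 and 243 in H596, NORAD, which binds PUMILIO proteins, had 73.4 and 243, and ZFAS1 had 121 and 170. In the other direction AFAP1-AS1 had 42.5 in H2087 and 3 counts in H596, LUCAT1 had 16.8 and 0 counts, and HCP5 had 30.6 and 4.11. The list and the members were chosen by hand, so their shares of calls, 20 of 27 and 3 of 8, describe these genes alone.

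For each member the gene nearest to it in both libraries was found by distance on the log2(FPKM + 1) scale, over 2 libraries. TUG1 lay nearest to SPG7 (distance 0.00640), DANCR to UBE3A (0.0155), MALAT1 to LMBR1 (0.0351), UCA1 to DSTN (0.0367), NEAT1 to TUBB (0.0556) and PVT1 to GUF1 (0.0821). MIR31HG lay nearest to LINC02482 (0.0686). MIR205HG was the most isolated, with TNFSF10 at a distance of 0.179, and its nearest noncoding gene, HNRNPA1P33, at 1.91. NEAT1 and UCA1 were each other's nearest noncoding gene, at 0.360.

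**Figure D5:**
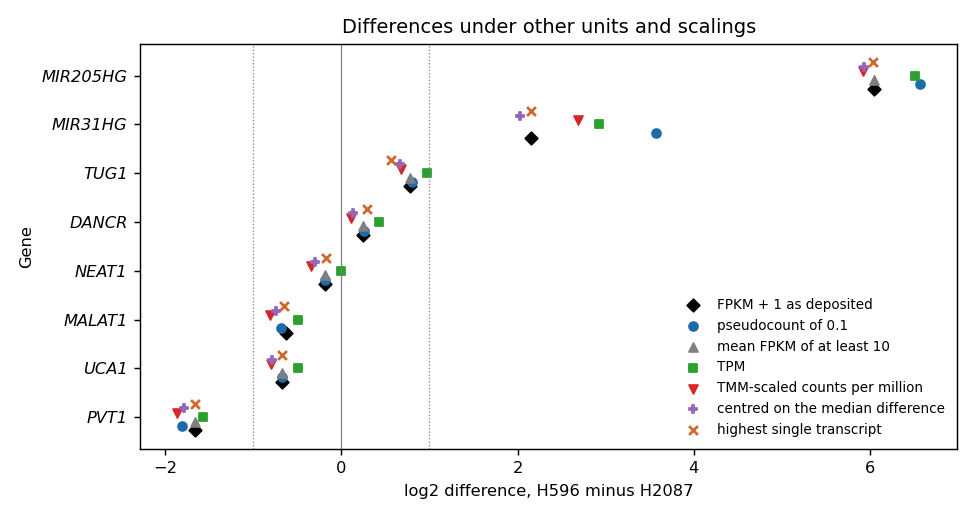
Log2 difference, H596 minus H2087, of the 8 genes under the deposited FPKM and 6 other units, scalings or filters (symbols), with 2-fold as dotted lines. Each gene keeps its side of 0, and the same 3 genes lie outside the dotted lines under every symbol shown for them, with MIR31HG moving most, from 2.03 to 3.57.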

How the data were processed

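One RNA-seq library of H2087 cells and one of H596 cells were compared. The authors isolated total RNA and built stranded mRNA libraries; the methods, which describe H2087 alone, name an Illumina HiSeq4000. Per the submitters' processing notes the tools were bcl2fastq 1.8.4, Trimmomatic, HISAT2 2.0.5 and StringTie 1.3.3b, on hg19. The authors deposited an estimated count and an FPKM value for each gene and transcript. The estimated counts deposited are whole numbers, and how they were derived is not given in the sources used here; were both mates of a pair counted, the intervals would be too narrow. FPKM deposited by the authors is scaled by transcript length and library size.

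From these, log2(FPKM + 1) in H2087 was subtracted from that in H596 for genes whose mean FPKM reached 1, with calls at 2-fold. For 2 repeated symbols the higher row was kept. Intervals are 95% Wilson intervals for levels and shares, and exact conditional binomial intervals for ratios (scipy 1.17.1). The calls and intervals were tried on simulated data with counting error alone, the model the intervals assume. That trial says nothing of variation between libraries. TMM factors came from edgeR 4.0.16 in R 4.3.3. With 1 library per cell line no test was made. All 8 members were named, with transcripts holding at least 10% of a gene, and from each list up to 4 genes by mean FPKM and up to 4 that differed at least 4-fold at a mean FPKM of at least 5; some lesser transcripts, hosted rows and listed genes outside this rule were picked with their values in view. The members and lists were chosen with earlier results of these data known. Strands came from GENCODE release 44 on GRCh37, for 89.1% of transcripts. Alternatives were a pseudocount of 0.1, no filter, a mean FPKM of at least 10, TPM, TMM, centring, transcript values, and thresholds of 50 and 200. Python 3.11.15, numpy 2.4.6, pandas 2.3.3 and matplotlib 3.10.9 were used. ChIP-seq data were not analysed here.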

Additional observations from a re-analysis of the deposited data

How the results depend on the processing

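Each of the 8 differences kept its sign under every alternative run for it. Calls of at least 2-fold held for MIR205HG, MIR31HG and PVT1 throughout, except that a filter at 10 FPKM left 1 member higher in H596 in place of 2, because MIR31HG is below that level and was not examined. The median log2 difference of the members, 0.03, became 0.21 in TPM, -0.12 with TMM scaling and -0.087 with centring. The TMM setting also replaced FPKM with depth-scaled counts, and with the pseudocount the members moved by unequal amounts: MIR31HG went from 2.15 to 2.69 with TMM and 2.92 in TPM, and NEAT1 from -0.19 to -0.35 and -0.0034. With an FPKM threshold of 200, 0 members passed in H2087 and 0 in H596, against 2 and 3 at 100. The other 27 alternative values of the summary results stayed within 1.5 times or the counting error. Among the genes called over all genes, 56.2% were higher in H596 as deposited, 65.6% in TPM, 50.5% with TMM and 49.1% with centring. Depth limits the H2087 values of MIR31HG (33 counts) and MIR205HG (87 counts). No paired analysis was possible because only single libraries were compared, which also left none to omit.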
